A study of Mus musculus with 12 samples.

Results

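Transcripts of the proteasome subunits and of the proteins that cap, inhibit or assemble the proteasome were followed in 3T3-L1 cells, a mouse fibroblast line that turns into adipocytes under hormonal induction. The members were all gene symbols that start with Psm, followed by a letter from a to g and a digit, leaving out the interferon-inducible subunits Psmb8, Psmb9 and Psmb10. This gave 44 of the 11035 genes in the count table, and all 44 were tested. They comprised 7 α-ring and 7 β-ring subunits of the 20S core, 17 subunits of the 19S cap, 5 activators, 1 inhibitor, 6 assembly chaperones and Psmc3ip, which carries the symbol but is a recombination cofactor and no subunit. The label therefore held for 43 of the 44 genes. Psmd9, Psma8 and Psmb11 were not analysed here.

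The study asked how breast cancer cells without p53 change preadipocytes through the medium they condition. There were 12 libraries in 4 groups of 3. KO_CM cells were differentiated in adipogenic media mixed 1:1 with filtered conditioned medium of WEA breast cancer cells lacking p53. WT_CM cells received the same media mixed 1:1 with conditioned medium of WEA cells with intact p53. Cells of regular_diff were differentiated in the adipogenic media alone, and preadipocyte cells were left undifferentiated. Induction began 2 days after confluence and lasted 2 days, followed by 2 days of insulin and then maintenance medium. The induction mix held rosiglitazone (2 µM), insulin (1 µg/mL), dexamethasone (1 µM) and the phosphodiesterase inhibitor IBMX (0.5 mM). The 3T3-L1 cells were wild type in every group, so only the cells that conditioned the medium differed in p53. Undifferentiated cells were kept in calf serum and differentiated cells in fetal bovine serum. The 4 groups held no library whose medium was diluted 1:1 without cancer cells. Whether replicates came from separate cultures is not stated, so p-values cover only how these libraries varied, and that variation may be technical. Replicates were numbered 1 to 3 under both conditioned media and 4 to 6 in the other groups, and a batch behind these numbers cannot be told apart from the conditioned medium.

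The proteasome is the protease that degrades proteins tagged with ubiquitin. Its 20S core is a barrel of α and β rings. The outer α rings gate the entry, and 3 subunits of the inner β rings cut the chain: Psmb5 (chymotrypsin-like), Psmb6 (caspase-like) and Psmb7 (trypsin-like). The 19S cap binds the ubiquitin chain, removes it and feeds the unfolded substrate into the core with a ring of ATPases. Psme1 and Psme2 form an alternative cap, Psme3 forms its nuclear relative, and Psme4 encodes the large single-chain activator PA200. Psmf1 encodes PI31, named for its inhibition of the core in vitro. The chaperones Psmg1 to Psmg4 assemble the core, and Psmd5 and Psmd10 help to assemble the base of the cap. In mouse brown fat the transcription factor Nfe2l1 is known to maintain proteasome gene expression.

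Total UMI counts per library ranged from 669007 to 1132099 in KO_CM, 1758814 to 2025317 in WT_CM, 1387854 to 1801316 in regular_diff and 1458452 to 1836626 in preadipocyte. The KO_CM libraries were the shallowest, and no member was at 0 counts in any library. Levels are given as CPM, counts per 1000000 of a library's TMM-scaled total. The summed level of 9 adipocyte markers was 8634 to 11132 CPM in KO_CM, 33531 to 34168 CPM in WT_CM, 37413 to 41116 CPM in regular_diff and 190.2 to 680.8 CPM in preadipocyte. The summed level of 8 fibroblast markers was 8329 to 9519 CPM in KO_CM, 4587 to 5105 CPM in WT_CM, 3112 to 3347 CPM in regular_diff and 9139 to 9929 CPM in preadipocyte. No marker of either list was at 0 in all libraries of a group. Among the differentiated groups, KO_CM had the lowest adipocyte marker sum and also the lowest summed member level described below. Over all 4 groups the order differed: preadipocyte had the lowest adipocyte marker sum but not the lowest mean member level. The part of these marker levels in the member results was not tested. In bulk RNA, fewer cells of a type and less RNA per cell cannot be told apart. Of 6 epithelial markers, 3 were in the table, and they summed to 8.1 to 26.4 CPM in KO_CM, 24.6 to 52.8 CPM in WT_CM, 28.6 to 34 CPM in regular_diff and 4.4 to 9.1 CPM in preadipocyte. Of 6 leukocyte markers, 2 were in the table, and they summed to 4.5 to 14.3 CPM over all libraries.

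Together the 44 genes were expressed at a lower summed level in KO_CM than in either other differentiated group. Their summed level was 6347, 7554 and 7249 CPM in KO_CM, 8878, 9103 and 8575 CPM in WT_CM, 9226, 8719 and 9165 CPM in regular_diff and 7784, 7353 and 7960 CPM in preadipocyte. The KO_CM libraries did not overlap the WT_CM or regular_diff libraries, whereas KO_CM and preadipocyte libraries overlapped. Means were 7050 ± 628 CPM in KO_CM, 8852 ± 265 CPM in WT_CM, 9037 ± 277 CPM in regular_diff and 7699 ± 312 CPM in preadipocyte (SD, n = 3 each). As an unscaled share of all counts, the members took 0.647% to 0.740% in KO_CM, 0.833% to 0.872% in WT_CM, 0.835% to 0.877% in regular_diff and 0.768% to 0.847% in preadipocyte. The group with the lowest mean was KO_CM for 28 of the 44 genes, WT_CM for 4, regular_diff for 2 and preadipocyte for 10. The highest mean was in KO_CM for 1, in WT_CM for 17, in regular_diff for 16 and in preadipocyte for 10. These counts were not made over all genes, so whether they are particular to the members cannot be told.

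**Figure D1:**
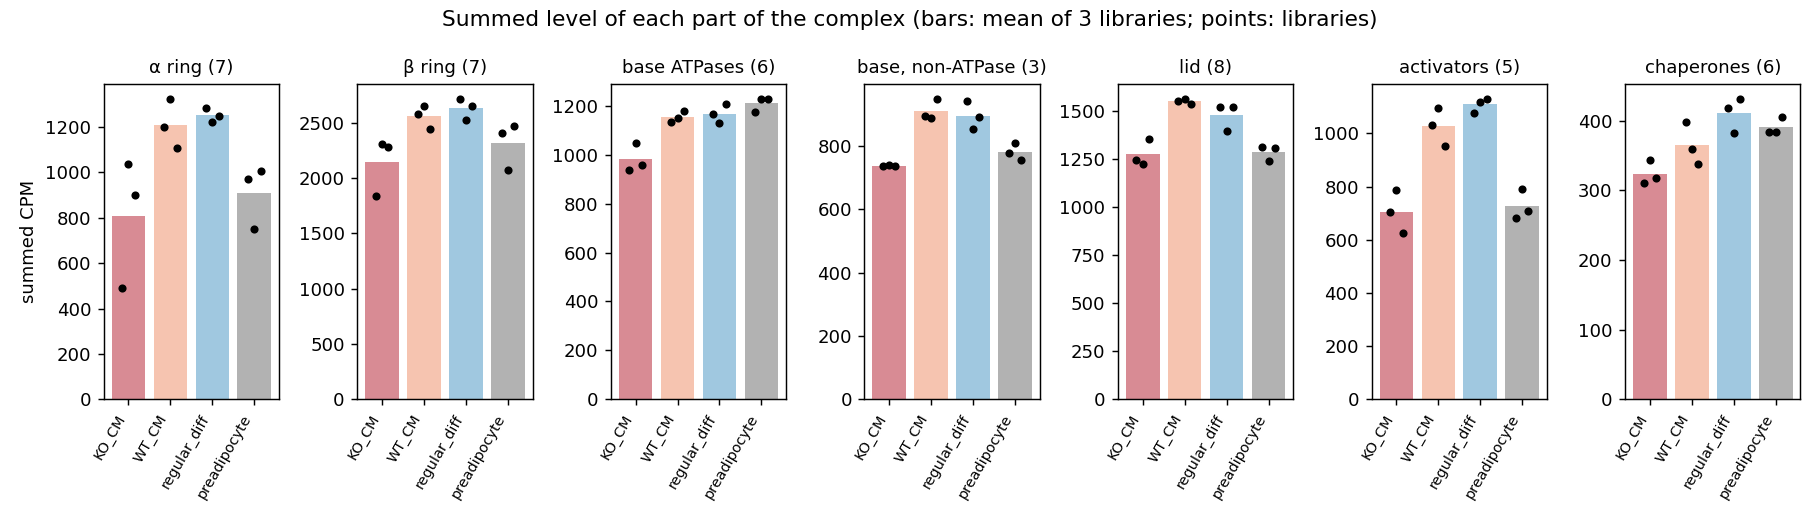
Summed level (CPM, linear axis from 0) of each part of the complex, with bars for the mean of 3 libraries, points for libraries and the number of genes in brackets. The KO_CM bars are the lowest in all 7 panels, and the 3 KO_CM points of the non-ATPase base lie between 735.1 and 739.4 CPM, against 887 to 949 CPM in WT_CM.

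The parts of the complex did not follow the same order over the groups. The base ATPases, the motor that unfolds the substrate, summed to 981 ± 57.7 CPM in KO_CM, 1154 ± 23.2 CPM in WT_CM, 1168 ± 38.2 CPM in regular_diff and 1210.4 ± 29.7 CPM in preadipocyte. The activators summed to 705 ± 81.1 CPM in KO_CM, 1027 ± 72.4 CPM in WT_CM, 1109 ± 28.2 CPM in regular_diff and 727 ± 56.5 CPM in preadipocyte (SD, n = 3 for each part and group). The activator sum was thus high in WT_CM and regular_diff and low in both KO_CM and preadipocyte, while the ATPase sum was low only in KO_CM among the 4 groups.

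**Figure D2:**
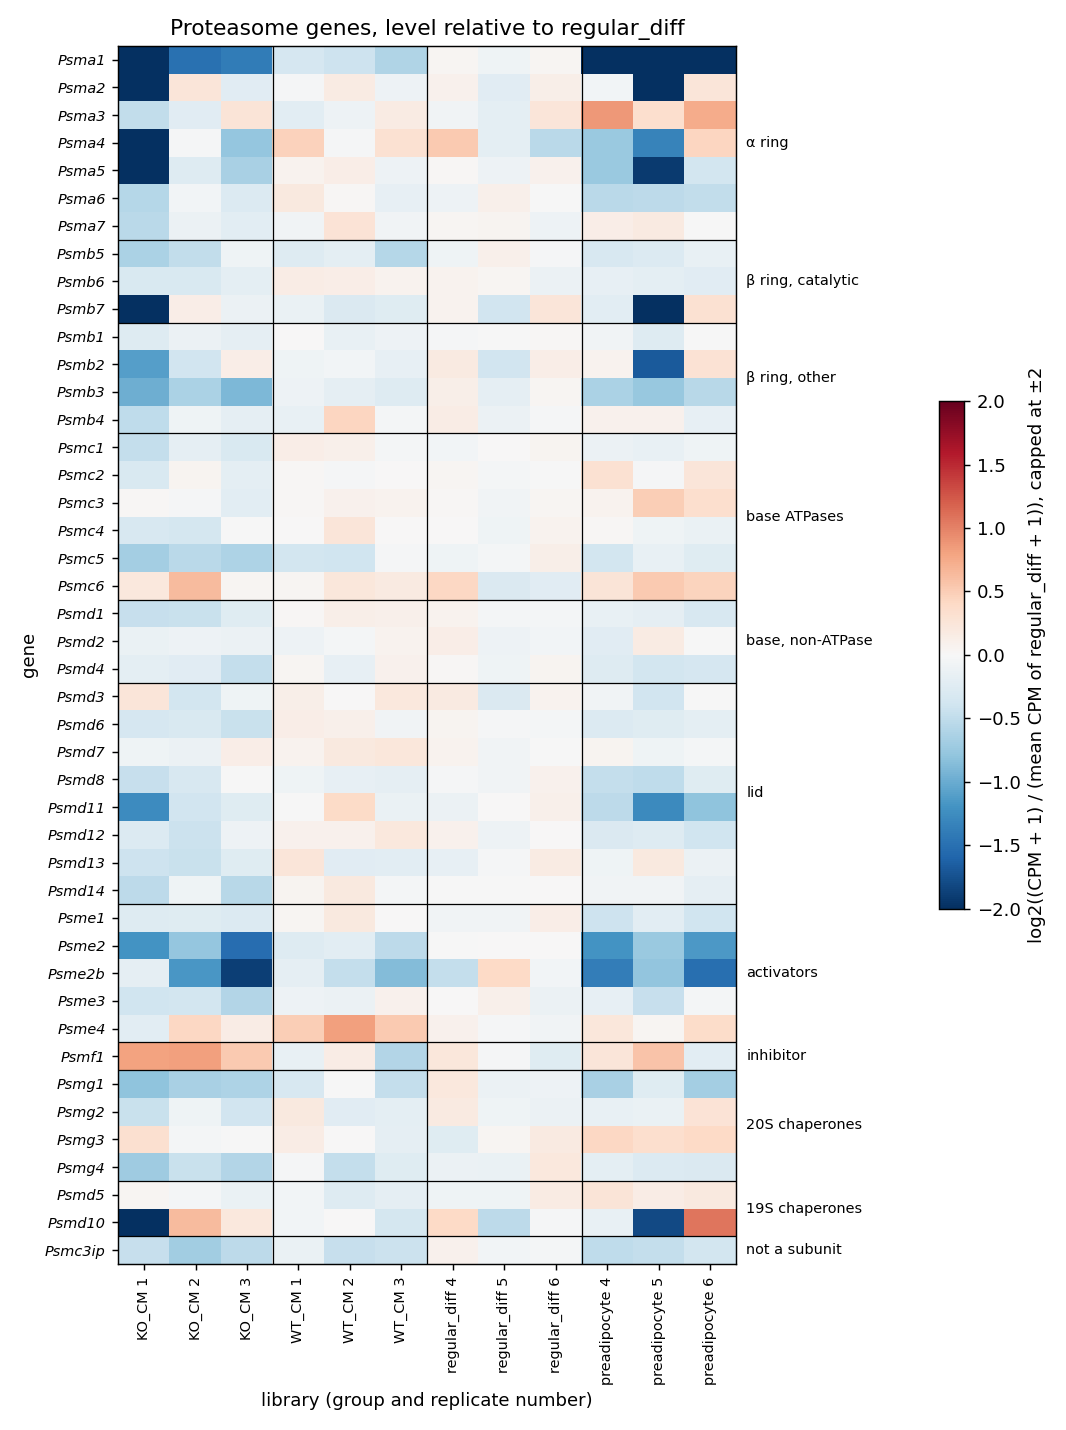
Level of each of the 44 genes (rows, by role) in each of the 12 libraries (columns), as log2 of CPM + 1 over the mean of regular_diff + 1, with colours capped at ±2. Psma1 is blue in all KO_CM and preadipocyte libraries, and a few rows such as Psma2, Psmb7 and Psmd10 are dark blue in only KO_CM replicate 1 and preadipocyte replicate 5.

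KO_CM replicate 1 and preadipocyte replicate 5 stood apart from their groups, for some of the members and over all genes tested. In KO_CM replicate 1, 6 of the 44 genes (Psma1, Psma2, Psma4, Psma5, Psmb7 and Psmd10) were under 0.5 times the lower of the other KO_CM replicates. So were 635 of all 9519 genes tested. In preadipocyte replicate 5, 5 of the 44 (Psma2, Psma5, Psmb2, Psmb7 and Psmd10) were under 0.5 times the lower of the other preadipocyte replicates, as were 374 of the 9519. The remaining 10 libraries held no such member and 95 to 284 such genes each. Preadipocyte replicate 5 also held the highest adipocyte marker sum of its group, 680.8 CPM: Fabp4, a fatty acid carrier of adipocytes, was at 43, 350.7 and 61 CPM in preadipocyte replicates 4, 5 and 6, and Adipoq, the adipocyte hormone adiponectin, at 6.5, 80.2 and 7.1 CPM. The part of these marker levels in the results that rest on this library was not tested. Psma2, Psma5, Psmb7 and Psmd10 were low in both, which is 9.09% of the members, against 186 of the 9519 genes tested (1.95%).

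Psma2, an α-ring subunit, was at 9.2, 189 and 136 CPM in KO_CM and at 153, 9.3 and 187 CPM in preadipocyte, while the WT_CM and regular_diff libraries lay between 136 and 178 CPM. Psmb7, the trypsin-like site of the core, was at 13.1, 226 and 190.5 CPM in KO_CM, 188, 169 and 174 CPM in WT_CM, 217, 157 and 244 CPM in regular_diff and 179, 15.5 and 256 CPM in preadipocyte. Both genes were thus low in KO_CM replicate 1 and preadipocyte replicate 5 among the 12 libraries. Psmd10, the assembly chaperone gankyrin, was at 1.3, 18.1 and 13.2 CPM in KO_CM, 10.7, 11.3 and 8.6 CPM in WT_CM, 15.2, 7.5 and 11 CPM in regular_diff and 10, 2.5 and 24.6 CPM in preadipocyte. Psmb7 passed the test in no comparison, and its fitted change was -0.50 ± 0.89 (log2, SE) for KO_CM over regular_diff with all libraries and 0.018 ± 0.19 without these 2 libraries. The summed level of the 37 members outside the 7 low ones was 6238 to 6801 CPM in KO_CM, 7813 to 8259 CPM in WT_CM, 7926 to 8262 CPM in regular_diff and 7187 to 7219 CPM in preadipocyte. Over these 37 genes the KO_CM libraries lay below all others, the preadipocyte libraries included. The 7 were left out for their values in KO_CM replicate 1 or preadipocyte replicate 5, libraries of the groups compared. Over all 44 genes KO_CM and preadipocyte overlapped, so their separation over the 37 rests on this choice.

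**Figure D3:**
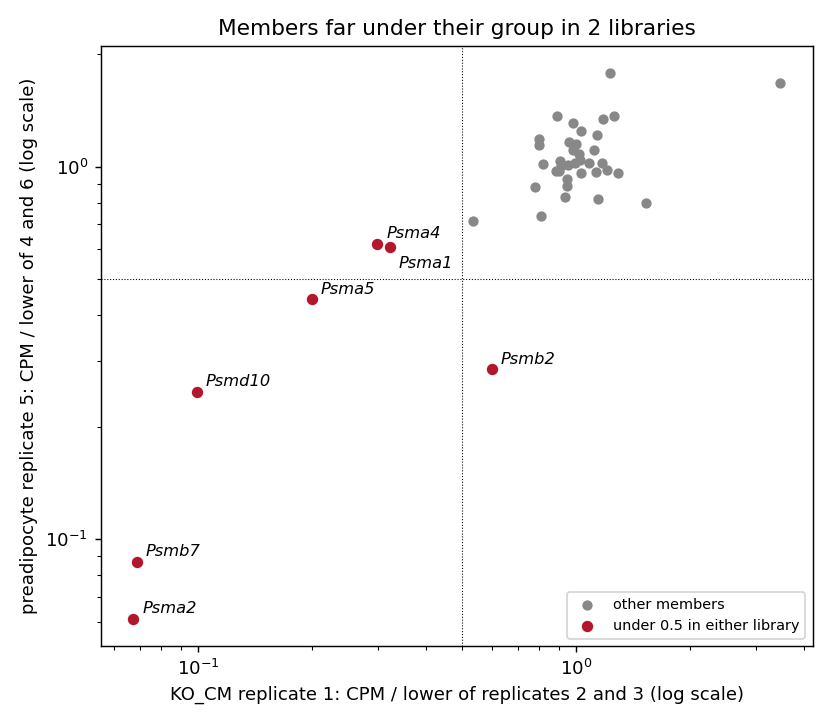
Each point is 1 of the 44 genes, plotted by its level in KO_CM replicate 1 (x) and preadipocyte replicate 5 (y), each divided by the lower of the other 2 replicates of its group, on log axes with dotted lines at 0.5. Psma2 lies at 0.0673 and 0.0611 and Psmb7 at 0.0688 and 0.087, while Psma1 and Psma4 are low in KO_CM replicate 1 only and Psmb2 in preadipocyte replicate 5 only.

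Regular differentiation raised the α-ring gene Psma1 5.65-fold over preadipocytes and the cap genes Psme2 and Psme2b 2.02-fold and 2.33-fold, while 29 of the 44 members did not pass the test. Of the 44 genes, 12 were higher and 3 lower in regular_diff than in preadipocyte by the test used throughout, edgeR's quasi-likelihood F test with p-values adjusted (Benjamini-Hochberg) over the 9519 genes and called below 0.05. This was 34.1% of the members, below the 51.2% of all genes tested that passed. The share called higher, 27.3%, was close to the background of 24.8%, and the share called lower, 6.82%, was under the background of 26.4%. The median log2 change of the members was 0.21, against -0.06 over all genes tested.

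Psma1 had 272, 251 and 273 CPM in regular_diff and 52, 31.7 and 56.4 CPM in preadipocyte. Every regular_diff library was far above every preadipocyte library, and the log2 change was 2.50 ± 0.32 (SE, adjusted p = 0.000117). Of the other 6 α-ring genes only Psma6 was also higher (log2 change 0.52 ± 0.13, adjusted p = 0.00176). Psma3 was lower, at 9.1, 8.3 and 11.6 CPM in regular_diff and 18.5, 12.4 and 16.9 CPM in preadipocyte, without overlap of the libraries (log2 change -0.71 ± 0.29, adjusted p = 0.0409). That call did not hold when regular_diff replicate 4 or 5 or preadipocyte replicate 4 or 6 was left out (adjusted p between 0.0885 and 0.158).

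In the β ring, 1 of 7 genes changed. Psmb3, a structural β subunit, had 245, 199 and 233 CPM in regular_diff and 145, 134 and 153 CPM in preadipocyte (log2 change 0.65 ± 0.12, adjusted p = 2.65e-05). The catalytic subunits Psmb5, Psmb6 and Psmb7 did not pass, with log2 changes between 0.19 and 0.46. In the 19S cap, 4 of 17 genes were higher and 1 was lower. The higher ones were the ubiquitin receptor Psmd4 (0.31) and the lid subunits Psmd8 (0.41), Psmd11 (0.84) and Psmd12 (0.32), as log2 changes. Psmd4 was not called without regular_diff replicate 6 (adjusted p = 0.0681), nor Psmd12 without regular_diff replicate 4 or 6 or preadipocyte replicate 6 (adjusted p between 0.0637 and 0.0963). Psmd11 had 73.5, 80.5 and 85.9 CPM in regular_diff and 55, 32.3 and 45.4 CPM in preadipocyte, with no overlap. The ATPase Psmc3 was lower, with 270.3, 254 and 272 CPM in regular_diff and 278, 373 and 333 CPM in preadipocyte (log2 change -0.31 ± 0.11, adjusted p = 0.019). It was no longer called without regular_diff replicate 5 or without preadipocyte replicate 5 (adjusted p 0.0652 and 0.0797).

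Of the activators, 3 of 5 were higher in regular_diff. Psme2 had 532, 539 and 538 CPM in regular_diff and 234, 321 and 241 CPM in preadipocyte (log2 change 1.02 ± 0.15, adjusted p = 1.62e-05). Psme2b, whose transcript shares most of its 3′ sequence with Psme2, had 32.8, 60.9 and 44.1 CPM in regular_diff and 17, 26.1 and 15.6 CPM in preadipocyte (1.22 ± 0.32, adjusted p = 0.00467). Psme1 had 334, 335 and 386 CPM in regular_diff and 264, 304 and 267 CPM in preadipocyte, a smaller difference with no overlap (0.34 ± 0.10, adjusted p = 0.00668), which was not called without regular_diff replicate 6 (adjusted p = 0.0694). The core chaperone Psmg1 was higher (0.52 ± 0.14, adjusted p = 0.00356). Its relative Psmg3 was lower, with 43.1, 52.7 and 58.1 CPM in regular_diff and 68.6, 65.3 and 68.1 CPM in preadipocyte (-0.39 ± 0.15, adjusted p = 0.0328). The Psmg3 call was lost without regular_diff replicate 4 or 5 or preadipocyte replicate 4 or 6 (adjusted p between 0.0538 and 0.176). Psmc3ip was higher as well (0.45 ± 0.14, adjusted p = 0.00781).

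The balance of higher and lower members in this comparison depended on the scaling. Scaled by library size alone, which shifts the median of all genes to -0.22, 7 members were higher and 7 lower, and the members' median was 0.055. Scaled by DESeq2's size factors, 16 were higher and 1 lower. Of the 15 members called, Psma1, Psma6, Psmb3, Psmd11, Psme2, Psme2b and Psmg1 were called under all 17 alternatives run for this comparison.

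**Figure D4:**
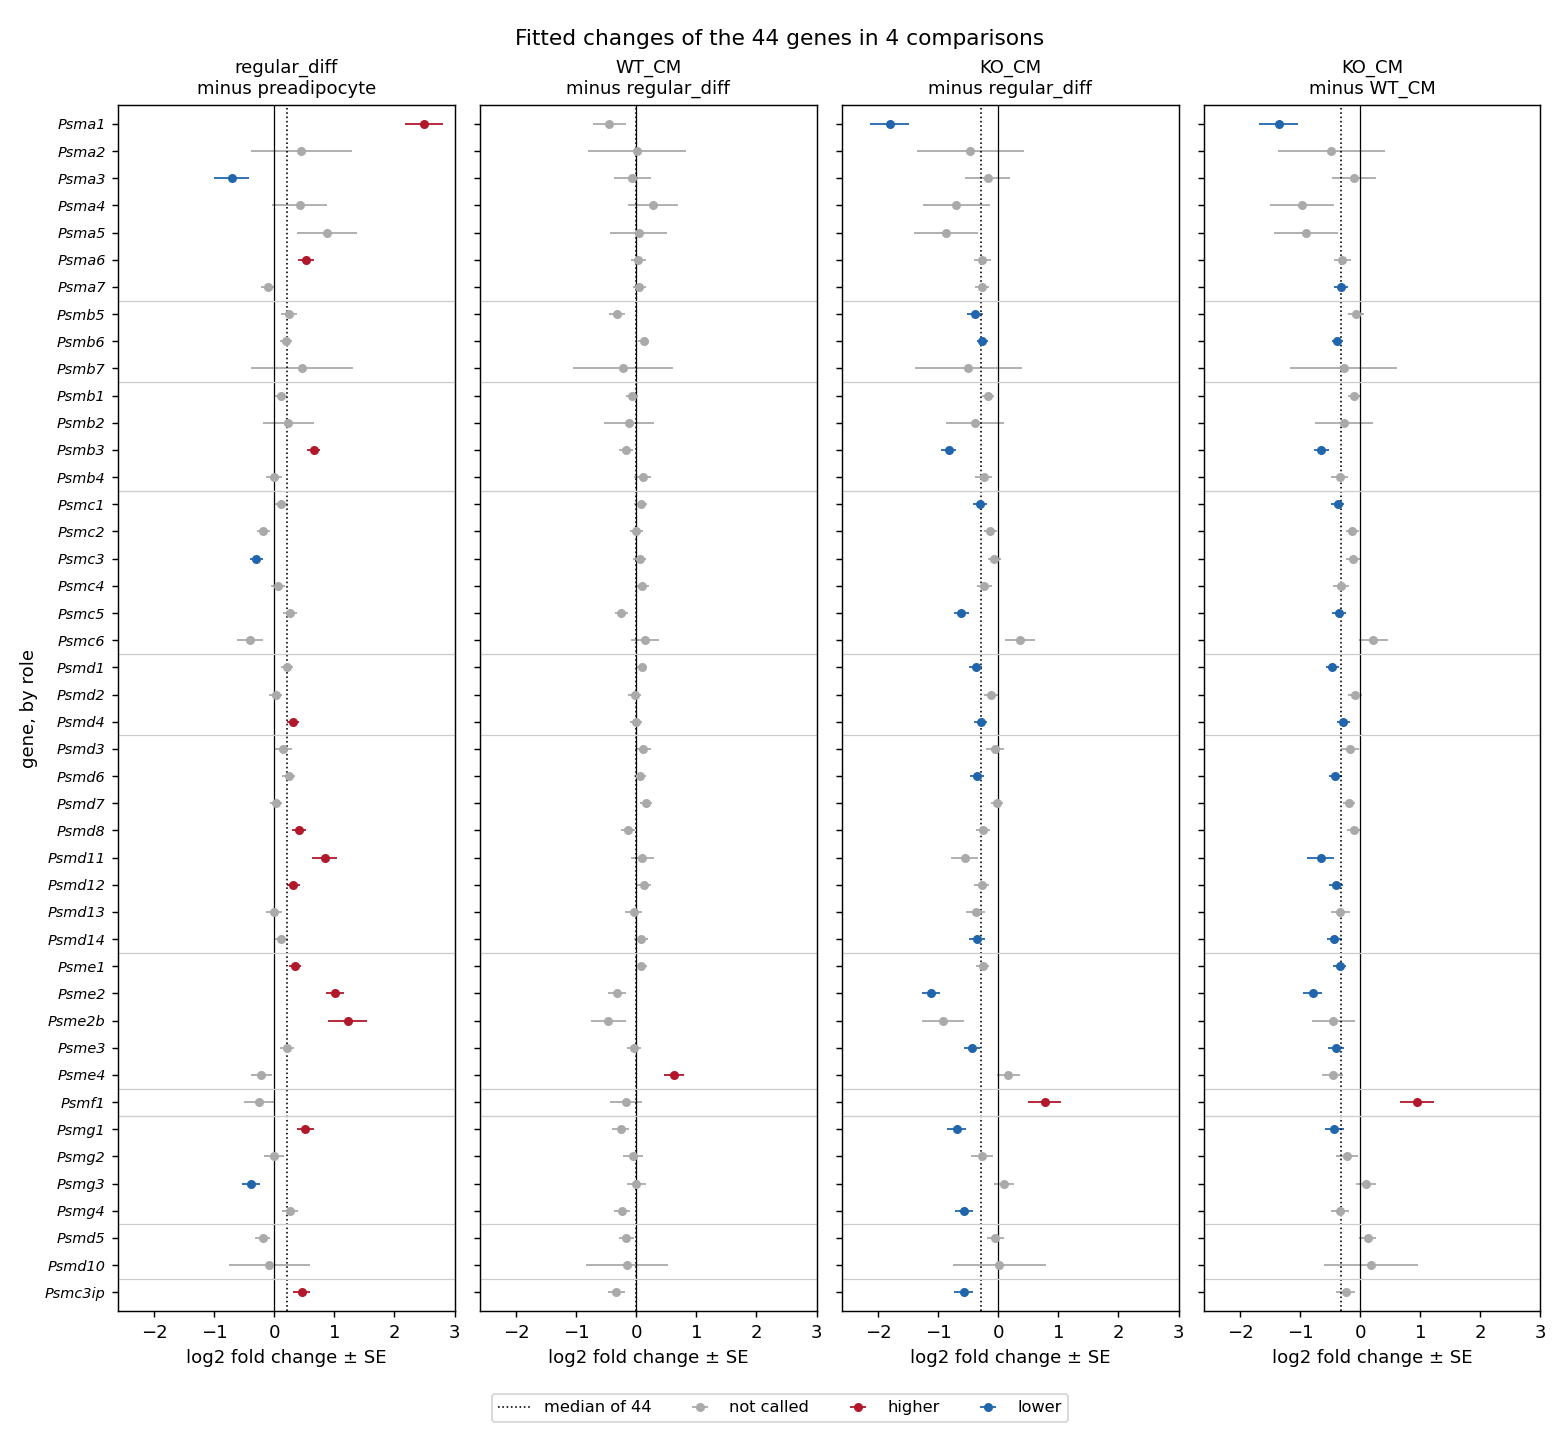
Log2 fold change with its SE for each of the 44 genes (rows, by role) in the 4 comparisons (panels), with colours for genes called higher or lower at an adjusted p under 0.05 and a dotted line at the members' median. The median lies at 0.21, -0.0060, -0.29 and -0.33 in the panels, and Psmf1 is the member called higher in both KO_CM panels.

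Under medium of p53-intact cancer cells a single member, the activator Psme4, passed the test. In WT_CM, 1 of the 44 genes was higher than in regular_diff and 0 were lower, which is 2.27%, below the background of 9.91% (5.73% higher and 4.18% lower). By an unadjusted p under 0.05, 5 of the 44 members differed, against 1921 of the 9519 genes tested. DESeq2 called 1 member as well (2.27%), against 7.36% of all genes tested. The median log2 change was -0.0060 for the members and -0.012 for all genes tested.

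The gene called was Psme4, which encodes the PA200 activator. It had 58.3, 73.6 and 59.3 CPM in WT_CM, against 43.7, 40.6 and 38.9 CPM in regular_diff. Every WT_CM library was above every regular_diff library, and the log2 change was 0.63 ± 0.16 (adjusted p = 0.0114). The call was lost without WT_CM replicate 2 or regular_diff replicate 6 (adjusted p 0.0958 and 0.0698). Without KO_CM replicate 1 and preadipocyte replicate 5, which enter this comparison through the shared estimate of the spread, Psma1 was also called lower (-0.45 ± 0.09, adjusted p = 0.000299), as was Psmb5 (-0.32 ± 0.11, adjusted p = 0.0312). With all libraries, Psma1 had 209.8, 198 and 174 CPM in WT_CM and 272, 251 and 273 CPM in regular_diff, with no overlap, and its adjusted p was 0.441.

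Medium of p53-knockout cancer cells went with lower levels of proteasome genes in the core, the cap, the activators and 2 of the core chaperones. Against regular_diff, 15 of the 44 genes were lower in KO_CM and 1 was higher. The share called, 36.4%, was close to the background of 34.6%. By direction, 34.1% of the members were lower against a background of 17.3%, and 2.27% were higher against 17.2%. The fitted change was below 0 for 39 of the 44, and the median was -0.29 against -0.0028 over all genes tested. The KO_CM libraries were the shallowest, and the part of their depth in these counts was not tested. With every library thinned to the smallest total, 13 of the 43 members tested were lower and 0 higher, with a median of -0.29. Of all genes in the thinned fit, 16.3% were lower and 15.8% higher.

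In the core, all 14 genes had a fitted change below 0, and 4 were called lower. Psma1 had 30.1, 93.9 and 99.6 CPM in KO_CM and 272, 251 and 273 CPM in regular_diff, so that each KO_CM library was far below each regular_diff library (log2 change -1.81 ± 0.32, adjusted p = 0.00191). Without KO_CM replicate 1 and preadipocyte replicate 5 its change was -1.46 ± 0.13. Psmb3 had 114, 144 and 120.2 CPM in KO_CM and 245, 199 and 233 CPM in regular_diff, again without overlap (-0.83 ± 0.12, adjusted p = 3.84e-06).

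Among the catalytic subunits, Psmb6 had 413, 415 and 448 CPM in KO_CM and 538, 526 and 469 CPM in regular_diff (-0.27 ± 0.10, adjusted p = 0.035). Psmb5 had 121, 133 and 177 CPM in KO_CM and 176, 202 and 185 CPM in regular_diff, so that KO_CM replicate 3 overlapped the regular_diff libraries (-0.40 ± 0.14, adjusted p = 0.0239). Both calls were fragile. Psmb6 was not called without KO_CM replicate 1 or 2 or regular_diff replicate 4 or 5 (adjusted p between 0.0807 and 0.178), nor Psmb5 without KO_CM replicate 1 or 2 or regular_diff replicate 5 or 6 (adjusted p between 0.0711 and 0.134).

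In the 19S cap, 16 of 17 genes had a fitted change below 0 and 6 were lower. They were the ATPases Psmc1 (-0.31) and Psmc5 (-0.61), the scaffold Psmd1 (-0.38), the ubiquitin receptor Psmd4 (-0.29), the lid subunit Psmd6 (-0.36) and the deubiquitinase Psmd14 (-0.36), as log2 changes. The exception in sign was the ATPase Psmc6, at 0.36 ± 0.25 and not called. Of the core chaperones, Psmg1 (-0.70 ± 0.16, adjusted p = 0.00117) and Psmg4 (-0.58 ± 0.15, adjusted p = 0.00316) were lower, while Psmg2 and Psmg3 did not pass. The base chaperones Psmd5 and Psmd10 did not pass, with log2 changes of -0.049 and 0.015. Psmc3ip was lower too (-0.58 ± 0.16). Of these calls, Psmc1 and Psmd14 were each lost without any 1 of 5 libraries (all but KO_CM replicate 2), Psmd4 without KO_CM replicate 2 or 3 or regular_diff replicate 4 or 6, Psmd6 without KO_CM replicate 3 or regular_diff replicate 4, and Psmc3ip without KO_CM replicate 2 (adjusted p between 0.0519 and 0.232 over these).

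Of the activators, 2 of 5 were lower and 0 higher. Psme2 had 235, 311 and 186 CPM in KO_CM and 532, 539 and 538 CPM in regular_diff, with no overlap (-1.12 ± 0.16, adjusted p = 1.34e-05). Its partner Psme1 had 292, 296 and 292 CPM in KO_CM and 334, 335 and 386 CPM in regular_diff, a change of -0.26 ± 0.10 that missed the threshold (adjusted p = 0.0525). The nuclear activator Psme3 had 102, 104 and 89.4 CPM in KO_CM and 135, 144 and 124 CPM in regular_diff (-0.44 ± 0.14, adjusted p = 0.0121), a call that did not hold without KO_CM replicate 3 or regular_diff replicate 5 (adjusted p 0.079 and 0.0694). Psme4 had 35.4, 55.1 and 45.4 CPM in KO_CM, which overlapped the 43.7, 40.6 and 38.9 CPM in regular_diff (adjusted p = 0.549). Psme2b, at 40.6, 19.9 and 11.7 CPM in KO_CM and 32.8, 60.9 and 44.1 CPM in regular_diff, did not pass either (adjusted p = 0.0578).

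The inhibitor Psmf1 was the only member called higher. It had 28.8, 28.9 and 23.4 CPM in KO_CM, against 18.8, 15.8 and 13.4 CPM in regular_diff. All KO_CM libraries were above all regular_diff libraries (log2 change 0.77 ± 0.28, adjusted p = 0.0316). The call was lost without KO_CM replicate 1 or 2 or regular_diff replicate 5 or 6 (adjusted p between 0.056 and 0.106), without both libraries that stand apart (0.0501), when all libraries were thinned (0.201) and with DESeq2 (0.0763). Of the 16 members called, Psma1, Psmb3, Psmc5, Psmd1, Psme2 and Psmg4 were called under all 16 alternatives run for this comparison.

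**Figure D5:**
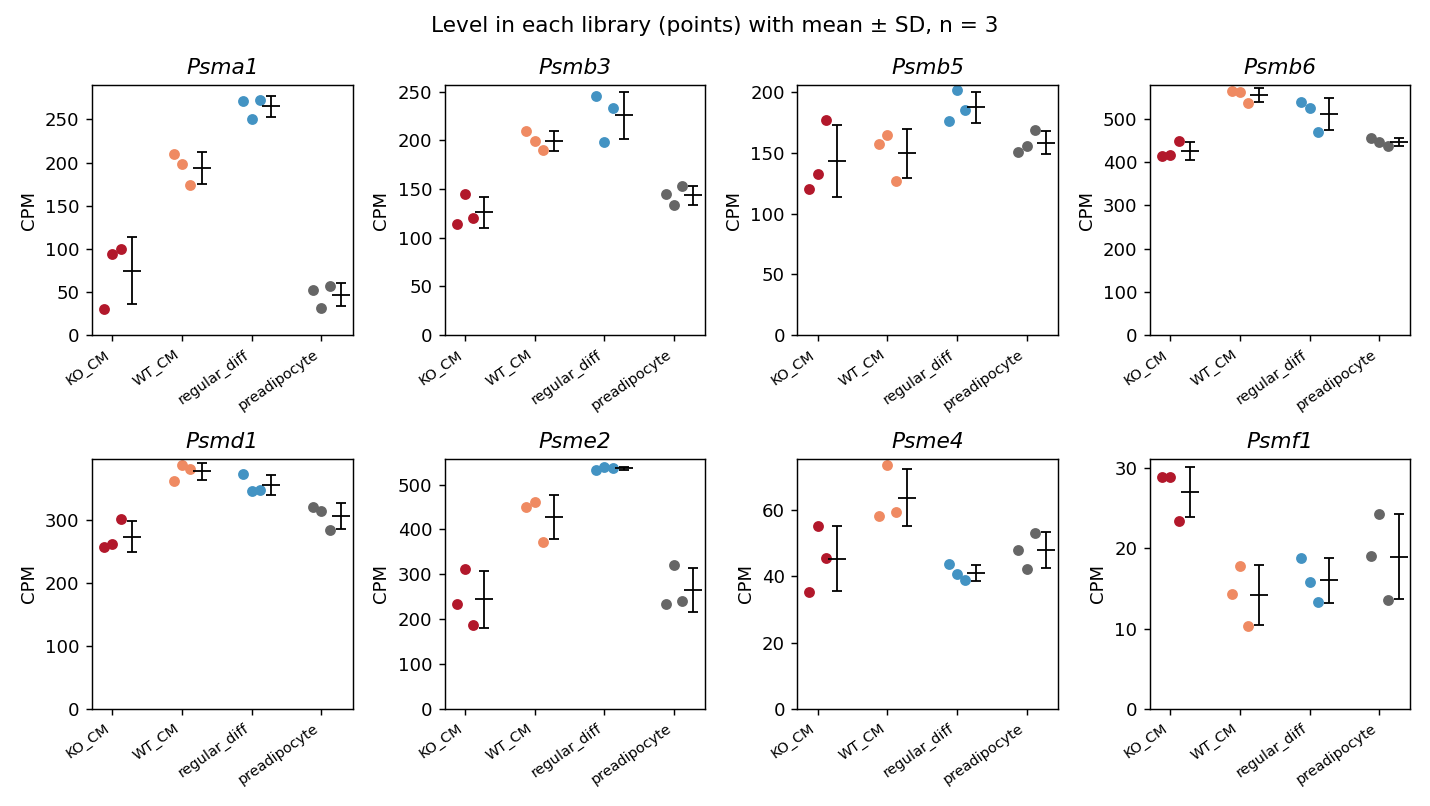
Level (CPM, linear axis from 0) of 8 members in each library, with black bars for the mean ± SD of 3 libraries per group. Psma1 and Psme2 are low in KO_CM and preadipocyte and high in WT_CM and regular_diff, Psme4 is highest in WT_CM among the 4 groups, and the 3 KO_CM points of Psmf1 (23.4 to 28.9 CPM) lie above the WT_CM and regular_diff points.

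Set directly against medium of p53-intact cancer cells, medium of p53-knockout cells also went with lower levels in the core, the cap, the activators and a core chaperone. In KO_CM, 16 of the 44 genes were lower and 1 was higher than in WT_CM. This was 38.6% of the members, against a background of 27.6%. By direction, 36.4% were lower against a background of 13.9%, and 2.27% were higher against 13.6%. The fitted change was below 0 for 39 of 44, with a median of -0.33, against -0.0093 over all genes tested. This comparison shares its KO_CM libraries with the one against regular_diff, so the 2 sets of values are not independent. Thinning every library to the smallest total left 10 of 43 members lower and 0 higher, with a median of -0.32. Of all genes in the thinned fit, 12.5% were lower and 12.1% higher.

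Psma1 had 30.1, 93.9 and 99.6 CPM in KO_CM, against 209.8, 198 and 174 CPM in WT_CM, with no overlap (log2 change -1.36 ± 0.33, adjusted p = 0.0128). Psmb3 was at 114, 144 and 120.2 CPM in KO_CM and 209.8, 199 and 190 CPM in WT_CM (-0.65 ± 0.12, adjusted p = 0.000167). Psmb6, the caspase-like site, had 413, 415 and 448 CPM in KO_CM and 564, 562 and 537 CPM in WT_CM (-0.38 ± 0.10, adjusted p = 0.00351). The KO_CM libraries of these 3 core genes were all below the WT_CM libraries. Psmb5, the chymotrypsin-like site, did not pass: its 121, 133 and 177 CPM in KO_CM overlapped 158, 164 and 127 CPM in WT_CM (-0.07 ± 0.14, adjusted p = 0.761). Psma7 was the other core gene called lower (-0.32 ± 0.12, adjusted p = 0.0411), and the call held only without KO_CM replicate 2 among the 6 libraries left out in turn.

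In the 19S cap, 8 of 17 genes were lower: Psmc1, Psmc5, Psmd1, Psmd4, Psmd6, Psmd11, Psmd12 and Psmd14, with log2 changes between -0.28 and -0.66. The lid subunit Psmd11 had 32.8, 61.4 and 67.4 CPM in KO_CM and 79.3, 105 and 73.2 CPM in WT_CM, which did not overlap (-0.66 ± 0.22, adjusted p = 0.031). Its call was lost without KO_CM replicate 1 or 2 or WT_CM replicate 1 or 2 (adjusted p between 0.0549 and 0.158). Psmd1, a scaffold of the base, was lower by a steadier margin, with 258, 263 and 302 CPM in KO_CM and 363, 388 and 383 CPM in WT_CM (-0.47 ± 0.10, adjusted p = 0.000817). Psmc1 was lost without KO_CM replicate 1 or WT_CM replicate 1 or 2, Psmc5 without KO_CM replicate 1 or 3 or WT_CM replicate 3, and Psmd4 without KO_CM replicate 2 or 3 or WT_CM replicate 1 or 3. Psmd12 was lost without KO_CM replicate 2 or WT_CM replicate 3, and Psmd14 without KO_CM replicate 1 or 3 or WT_CM replicate 2. The core chaperone Psmg1 was lower at an adjusted p of 0.0485 (-0.43 ± 0.16), and that call was lost without any 1 of the libraries except WT_CM replicate 3.

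Of the activators, 3 of 5 were lower. Psme2 had 235, 311 and 186 CPM in KO_CM and 449, 461 and 371 CPM in WT_CM (-0.79 ± 0.16, adjusted p = 0.000732). Psme1 had 292, 296 and 292 CPM in KO_CM and 360, 404 and 354 CPM in WT_CM (-0.34 ± 0.10, adjusted p = 0.0132), and Psme3 had 102, 104 and 89.4 CPM in KO_CM and 125, 124 and 143 CPM in WT_CM (-0.40 ± 0.14, adjusted p = 0.0263). None of these 3 genes had overlapping libraries. Psme1 was not called without KO_CM replicate 3 or WT_CM replicate 2 (adjusted p 0.0524 and 0.106), nor Psme3 without KO_CM replicate 2 or 3 or WT_CM replicate 1 or 3 (adjusted p between 0.0579 and 0.152). Psme4 had 35.4, 55.1 and 45.4 CPM in KO_CM and 58.3, 73.6 and 59.3 CPM in WT_CM, also without overlap, and missed the threshold (-0.46 ± 0.18, adjusted p = 0.0549).

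Psmf1 was again the only member called higher, with 28.8, 28.9 and 23.4 CPM in KO_CM, against 14.3, 17.8 and 10.4 CPM in WT_CM (0.94 ± 0.28, adjusted p = 0.0112). The 3 KO_CM libraries were all above the WT_CM libraries. Its preadipocyte libraries, at 19, 24.2 and 13.6 CPM, overlapped the KO_CM and the regular_diff ranges. The call was lost without WT_CM replicate 3 (adjusted p = 0.0513) and when all libraries were thinned (0.0579). Of the 17 members called, Psmb3, Psmb6, Psmd1 and Psme2 were called under all 17 alternatives run for this comparison.

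Leaving out KO_CM replicate 1 and preadipocyte replicate 5 left the number of called members in the KO_CM comparisons close to that with all libraries. Against regular_diff, 15 members were then lower in KO_CM and 0 higher, 12 of them shared with the full set. Of all genes tested, 17.2% were lower and 17.2% higher there. Psmb5, Psmc1, Psmd14 and Psmf1 were lost, and Psma5, Psme1 and Psme2b were gained. Against WT_CM, 16 members were lower and 1 higher (13.7% and 13.6% of all genes tested), 14 of them shared. Psma7, Psmd11 and Psmg1 were lost there, and Psma5, Psmd3 and Psme2b were gained. For regular_diff over preadipocyte, 15 members were higher and 3 lower (25.8% and 27.4% of all genes tested). Psmc3 was lost there, and Psma5, Psmc2, Psmc5 and Psmd1 were gained. In the authors' deposited table, 0 members were higher and 13 lower in KO_CM than in regular_diff at an adjusted p under 0.05. Of all 11035 genes, 1386 were higher and 1416 lower there. For KO_CM over WT_CM, 1 member was higher and 11 lower (all genes: 1025 and 1051). For WT_CM over regular_diff, 1 member was higher and 0 lower (all genes: 389 and 277). For regular_diff over preadipocyte, 14 members were higher and 0 lower (all genes: 2334 and 2036).

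Genes linked to the 26S particle without carrying a Psm symbol were read from a list of 21 symbols, of which 15 were tested. The list was not limited to proteins that work on the particle, as it also held Cdkn1a and Hspb1. Adrm1 and Uchl5 were lower in KO_CM than in both other differentiated groups. Adrm1, a ubiquitin receptor of the 19S base, had 109, 102 and 101 CPM in KO_CM, 169, 167 and 153 CPM in WT_CM, 168, 234 and 196 CPM in regular_diff and 109, 106 and 94 CPM in preadipocyte. The KO_CM libraries thus overlapped the preadipocyte libraries and lay below both other groups (log2 change -0.93 ± 0.13 over regular_diff, adjusted p = 1.65e-06, and -0.65 ± 0.13 over WT_CM, adjusted p = 0.000379). Uchl5, the deubiquitinase that Adrm1 recruits, was lower in KO_CM by -0.69 ± 0.18 (log2) against regular_diff and -0.77 ± 0.18 against WT_CM. The shuttle factors that carry ubiquitinated proteins to the cap split. Ubqln1 was lower in KO_CM than in regular_diff (-0.79 ± 0.17, adjusted p = 0.000439), and Ubqln2 was higher (0.84 ± 0.15, adjusted p = 7.83e-05). Pomp, the chaperone that matures the β ring, and Sem1, a small lid subunit, did not pass in any of the 4 comparisons. In all, 2 of the 15 were higher and 4 lower in KO_CM than in regular_diff (17.2% and 17.3% of all genes tested). Against WT_CM, 1 was higher and 3 lower in KO_CM (13.6% and 13.9% of all genes). In WT_CM 0 were higher and 1, Cdkn1a, was lower than in regular_diff (5.73% and 4.18% of all genes). In regular_diff 5 were higher, Hspb1 among them, and 5 lower than in preadipocyte (24.8% and 26.4% of all genes).

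Of 5 genes for the immunoproteasome and the peptide transporter, 3 were higher and 0 lower in KO_CM than in regular_diff (17.2% and 17.3% of all genes tested). The 3 were Psmb8 and the transporter genes Tap1 and Tap2. The immunoproteasome subunits Psmb9 and Psmb10 passed in none of the 4 comparisons. Against WT_CM, 0 of the 5 were higher or lower in KO_CM (13.6% and 13.9% of all genes). In WT_CM 2 were higher and 0 lower than in regular_diff (5.73% and 4.18% of all genes). In regular_diff 1 of the 5 was higher and 1 lower than in preadipocyte (24.8% and 26.4% of all genes). Psmb8, the subunit that replaces Psmb5 under inflammatory signals, had the largest change in KO_CM over regular_diff among them. It had 35.4, 56.9 and 24.9 CPM in KO_CM, 35.3, 32.7 and 25.3 CPM in WT_CM, 14.6, 12.8 and 11.6 CPM in regular_diff and 13, 13.1 and 23.3 CPM in preadipocyte, and was higher than in regular_diff in both KO_CM (1.65 ± 0.29, adjusted p = 6.3e-05) and WT_CM (1.26 ± 0.28, adjusted p = 0.00282).

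The start-site windows of the members were read for 2 motifs in RefSeq promoter sequences of build GRCm38.p6, from 250 bases before to 50 bases after the transcription start. Windows were found for 37 of the 44 genes. The letters CCAAT, the box bound by NF-Y, were searched on both strands and stood in the windows of 13 of the 37 members (35.1%), against 41.1% of all genes with a window. The letters TGACNNNGC, the core of the element bound by Nfe2l1 and Nfe2l2, stood in the windows of 5 members (13.5%; Psmb5, Psmb6, Psmc6, Psmd12 and Psme4), against 14% of all genes. Both shares were near those of all genes. Of the 13 members with CCAAT, 7 were lower in KO_CM than in regular_diff, against 8 of the 24 without it, and the medians of these members were -0.31 and -0.32 (log2). Shown are the windows of Psma1 (chr7:114276067-114276366, minus strand) and Psmb3 (chr11:97703184-97703483, plus strand), the core genes with the largest called falls in KO_CM, of Psmb6 (chr11:70525107-70525406, plus strand), the catalytic gene called in both KO_CM comparisons, of Psme4 (chr11:30771525-30771824, plus strand), the member called in WT_CM, and of Psmf1 (chr2:151741261-151741560, minus strand), the member called higher in KO_CM. Capitals mark CCAAT on either strand in Psma1 and Psmb3 and TGACNNNGC on either strand in Psmb6 and Psme4, and the Psmf1 window held neither.
Psma1: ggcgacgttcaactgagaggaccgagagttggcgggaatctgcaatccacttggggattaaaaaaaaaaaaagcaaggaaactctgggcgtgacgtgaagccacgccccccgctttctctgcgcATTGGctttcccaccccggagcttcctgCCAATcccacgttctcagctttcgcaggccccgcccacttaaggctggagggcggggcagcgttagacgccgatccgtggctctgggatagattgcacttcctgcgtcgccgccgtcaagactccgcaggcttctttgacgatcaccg
Psmb3: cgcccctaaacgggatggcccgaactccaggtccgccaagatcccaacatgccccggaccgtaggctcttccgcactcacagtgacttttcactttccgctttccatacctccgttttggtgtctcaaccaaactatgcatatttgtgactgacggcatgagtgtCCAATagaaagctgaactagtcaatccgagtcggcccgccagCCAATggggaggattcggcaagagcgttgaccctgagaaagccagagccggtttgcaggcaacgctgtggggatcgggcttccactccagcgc
Psmb6: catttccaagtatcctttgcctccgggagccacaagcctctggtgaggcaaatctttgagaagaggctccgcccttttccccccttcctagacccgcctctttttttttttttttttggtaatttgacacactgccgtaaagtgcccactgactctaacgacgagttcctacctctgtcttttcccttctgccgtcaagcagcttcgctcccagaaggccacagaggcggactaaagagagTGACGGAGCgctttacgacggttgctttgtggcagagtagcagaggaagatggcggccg
Psme4: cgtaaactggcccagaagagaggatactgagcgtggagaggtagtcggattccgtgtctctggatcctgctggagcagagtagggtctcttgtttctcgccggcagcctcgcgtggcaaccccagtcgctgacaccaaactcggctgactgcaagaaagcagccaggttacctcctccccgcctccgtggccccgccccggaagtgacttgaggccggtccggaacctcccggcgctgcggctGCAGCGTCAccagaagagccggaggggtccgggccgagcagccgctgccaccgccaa
Psmf1: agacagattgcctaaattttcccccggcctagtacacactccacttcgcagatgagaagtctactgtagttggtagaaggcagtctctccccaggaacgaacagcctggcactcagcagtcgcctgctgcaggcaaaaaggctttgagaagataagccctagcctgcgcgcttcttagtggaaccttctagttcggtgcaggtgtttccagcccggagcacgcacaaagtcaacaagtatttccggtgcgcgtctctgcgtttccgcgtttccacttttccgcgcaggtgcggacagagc

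Many proteasome genes have processed copies elsewhere in the genome, which bears on how 3′ reads are counted. In GENCODE transcripts of build GRCm38, 13 of the 44 genes shared more than 10% of the 31-base stretches in their last 500 bases with another gene, so their counts are uncertain. Psmb3 (72.3%), Psme2 (71.6%), Psme2b (70.2%), Psma5 (68.7%) and Psmb5 (67%) shared the most, and the remaining 8 were Psma3, Psma4, Psmb6, Psmc1, Psmd1, Psmd2, Psmd11 and Psme1. Psma1, the member with the largest changes, shared none, nor did Psme3, Psme4 and Psmf1. The Psme2 and Psme2b counts may be split between these genes: Psme2b, on chromosome 11, took 549 counts over all libraries and Psme2, which lies beside Psme1 on chromosome 14, took 6822. The last 500 bases of Psma3, Psmb7, Psmc3, Psmc3ip, Psmd1, Psme1, Psme2b and Psmg3 also overlap another annotated gene, and whether counting used strand is not given in the sources used here.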

How the data were processed

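Cells were 3T3-L1, and RNA was barcoded at reverse transcription and pooled (MARS-seq), per the labels' protocols. The submitters' processing notes name the build mm10 and the tools HTSeq, cutadapt and DESeq2; no version and no annotation is given in the sources used here. Per the file headers, the authors deposited whole UMI counts per gene, not normalized, in a table of 11035 genes. Their deposited log2 fold changes and adjusted p-values were only counted, with the sign turned so that the differentiated or conditioned group comes on top. The table's 24 normalized or transformed per-sample columns were not used.

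The main test was the two-sided quasi-likelihood test of edgeR 4.0.16 (R 4.3.3) on the deposited counts. All 12 libraries and 4 group means entered 1 robust fit after TMM scaling, and filterByExpr kept 9519 genes and dropped 1516. Calls used Benjamini-Hochberg values below 0.05 over the kept genes. The spread across genes corresponded to a common coefficient of variation of 0.126 (median prior df 19.2). CPM were computed over the kept genes with TMM-scaled totals. SEs rest on 3 libraries a group. Within a group, no 2 libraries agreed within sampling noise (chi-square per gene from 2 to 6.99). Members and lists were chosen with earlier results of these data known. Named with values in every library were Psmb5 to Psmb7, Psme1 to Psme4, Psmf1 and, per comparison and direction, the 3 called members with the largest change and no overlap; members called or discussed beside these are given by fewer values. Outside the members, the rule was to name up to 4 called genes per list and comparison by size of change, and it was followed in part. Mafk, Foxm1, Maff, Stat3, Rbx1, Ube2h and Ube2b met it but were left out of the results, and Hspb1, Cdkn1a, Tap1 and Tap2 were named without their values. Nfyb was named beside Nfya without meeting it. Values in every library for Psma2, Psmd1, Psmd10, Adrm1, Psmb8 and the markers Fabp4 and Adipoq were added after their values were seen. The same holds for the levels of Cul3 and the mention of Nfe2l1, Ngly1, Pomp, Sem1, Psmb9 and Psmb10. Alternatives were DESeq2 1.42.0, other scalings, other filters, a non-robust fit, the 6 libraries compared, the replicate number as a block, thinned counts, and leaving out libraries. Figures were drawn with matplotlib 3.10.9 (Python 3.11.15).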

Additional observations from a re-analysis of the deposited data

How the results depend on the processing

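The lower members in KO_CM kept their direction under the alternatives run, and their number did not. For KO_CM over regular_diff, 10 to 12 members were called with 1 library left out (fewest, 10, without regular_diff replicate 5), against 16 with all; the median stayed between -0.33 and -0.21. For KO_CM over WT_CM, 11 to 13 were called with 1 library left out (11 without KO_CM replicate 3, WT_CM replicate 2 or WT_CM replicate 3) and 10 with thinned counts, against 17; the median ranged from -0.34 to -0.24 with 1 library left out. Of the called members, 7 of 16 and 6 of 17 in these comparisons, 9 of 15 in regular_diff over preadipocyte and 0 of 1 in WT_CM over regular_diff stayed called whichever library was left out. For WT_CM over regular_diff, the genes called numbered 1445 without KO_CM replicate 1 and preadipocyte replicate 5, 1480 with the 6 libraries compared, 515 with thinned counts and 595 to 711 with 1 library left out (595 and 621 without regular_diff replicate 4 and 6), against 943; the members called were 3, 4, 1 and 0 to 2 (0 without WT_CM replicate 2 or regular_diff replicate 6, 2 without WT_CM replicate 3). For regular_diff over preadipocyte, the members' median of 0.21 was 0.055 by library size alone, 0.15 with upper quartile scaling, 0.11 without both libraries that stand apart, 0.15 with thinned counts and 0.084 to 0.24 with 1 library left out (0.084 without preadipocyte replicate 5). The cause of these shifts was not tested.

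Signs were followed for the called members and for Psmb5 to Psmb7, Psme1 to Psme4 and Psmf1. Among these, sign changes were limited to comparisons in which the gene was not called. The other members were only counted. By library size alone, 20 of the 44 members were below 0 in regular_diff over preadipocyte, against 13 in the main fit. In KO_CM over regular_diff, 35 were below 0, against 39. Psmb7 in regular_diff over preadipocyte turned to -0.058 without both libraries that stand apart and ranged from -0.082 (without preadipocyte replicate 5) to 1.04 with 1 library left out. Psmb7 in KO_CM over regular_diff turned to 0.018 without both and ranged from -1.04 to 0.015 (without KO_CM replicate 1); in KO_CM over WT_CM it turned to 0.25 without both and ranged from -0.81 to 0.24 (without KO_CM replicate 1). Psmb5 in KO_CM over WT_CM turned to 0.023 without both and ranged from -0.21 to 0.029, above 0 without KO_CM replicate 1, KO_CM replicate 2 or WT_CM replicate 2. Psmf1 in regular_diff over preadipocyte turned to 0.058 with thinned counts. Psme3 in WT_CM over regular_diff ranged from -0.11 to 0.0093 (without regular_diff replicate 5), and Psme4 in KO_CM over regular_diff from -0.0071 (without KO_CM replicate 2) to 0.31; the cause was not tested.

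The replicate number was tried as a block in fits of only the 6 libraries compared. There 13 members were higher and 3 lower in regular_diff than in preadipocyte (4782 genes called), against 13 and 2 in the same 6 libraries without the block (4727 genes called). In KO_CM over WT_CM, 1 was higher and 11 lower (2168 genes called), against 1 and 13 without the block (2430 genes called). Deviations of same-numbered libraries correlated at -0.01, 0.12 and 0.07 between regular_diff and preadipocyte and at -0.04, 0.04 and -0.05 between KO_CM and WT_CM. For libraries with different numbers, the correlations ran from -0.11 to 0.083 and from -0.042 to 0.077. With 3 libraries a group, these values cannot decide whether the numbers pair the libraries. Of the 17 KO_CM over WT_CM calls, 6 were not made in the block fit: Psma1 (log2 change -1.42 ± 0.47, adjusted p = 0.152), Psma7 (0.052), Psmc5 (0.0536), Psmd4 (0.113), Psme3 (0.0552) and Psmg1 (0.0627). Psma7, Psmd4 and Psmg1 were not called in the same 6 libraries without the block either (0.0809, 0.0791 and 0.0556). With every library thinned to the smallest total, 13 members were called in KO_CM over regular_diff, against 16 at full depth.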

Other observations

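Upstream of the proteasome, enzymes attach ubiquitin to the proteins to be degraded. Of 29 listed genes of ubiquitin and its enzymes, 22 were tested. In KO_CM 4 were higher and 3 lower than in regular_diff, beside a background of 17.2% of all genes tested higher and 17.3% lower, and the median log2 change was 0.12, against -0.0028 over all genes tested. Fbxo32, a ubiquitin ligase of muscle atrophy, was higher (12.5 CPM in KO_CM, 4.9 CPM in regular_diff, 1.37 ± 0.48, adjusted p = 0.0263), as were the conjugating enzyme Ube2d1 (0.93 ± 0.21, adjusted p = 0.000987) and the ligase scaffold Cul3 (1.23 ± 0.44, adjusted p = 0.0301). Fbxo32 and Cul3 rested on few counts: Cul3 was at 14.4, 9.9 and 7.3 CPM in KO_CM and 3.6, 3 and 6.4 CPM in regular_diff. Ube2a, a conjugating enzyme that acts on histone H2B and at stalled replication, was lower (123 CPM in KO_CM, 222 CPM in regular_diff; -0.86 ± 0.13, adjusted p = 6.4e-06). It was also lower in WT_CM than in regular_diff (-0.53 ± 0.12, adjusted p = 0.00373). In KO_CM 4 of the 22 were higher and 0 lower than in WT_CM (13.6% and 13.9% of all genes tested). In WT_CM 0 were higher and 1 lower than in regular_diff (5.73% and 4.18% of all genes). In regular_diff 3 were higher and 7 lower than in preadipocyte (24.8% and 26.4% of all genes).

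Of 24 listed genes known to regulate proteasome transcription or to process Nfe2l1, 21 were tested. Nfe2l1 itself was higher in regular_diff than in preadipocyte (345 and 279 CPM; 0.31 ± 0.10, adjusted p = 0.00787) and passed in no other comparison. Ngly1, the enzyme that removes sugars from Nfe2l1 on its way to activation, was higher in regular_diff than in preadipocyte (0.98 ± 0.18, adjusted p = 3.22e-05) and lower in KO_CM than in regular_diff (-0.53 ± 0.19, adjusted p = 0.0315). Foxo1, a forkhead factor of insulin signalling, averaged 17.5 CPM in KO_CM, 33.9 CPM in WT_CM, 44.1 CPM in regular_diff and 10.5 CPM in preadipocyte, and was lower in KO_CM than in WT_CM (-0.99 ± 0.27, adjusted p = 0.00573). The subunits of NF-Y split: Nfya was higher in KO_CM than in regular_diff (1.20 ± 0.30, adjusted p = 0.0021) and Nfyb was lower, with overlapping libraries (-0.91 ± 0.33, adjusted p = 0.0322). Over the 21 genes, 4 were higher and 3 lower in KO_CM than in regular_diff (17.2% and 17.3% of all genes tested). Against WT_CM, 0 were higher and 1 lower in KO_CM (13.6% and 13.9% of all genes). In WT_CM 3 were higher and 0 lower than in regular_diff (5.73% and 4.18% of all genes). In regular_diff 9 were higher and 4 lower than in preadipocyte (24.8% and 26.4% of all genes).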
